A study of Auxenochlorella pyrenoidosa with 18 samples.

Results

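Genes with 25 or more exons are the protein-coding gene models with the most exons in the green microalga Auxenochlorella pyrenoidosa, strain FACHB-9. Among 10284 gene models deposited for the series, a gene was taken where its transcript with the longest coding sequence had at least 25 exon lines and both a start and a stop codon. The rule found 453 genes. A further 2 models reached 25 exons but lacked a start or stop codon and were left out. All 8901 models with both codons are called complete here, and the 453 genes are 5.09% of them. The comparison class holds the 5837 complete genes with 5 to 15 exons.

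The study sequenced messenger RNA of this alga in 18 libraries, in 6 groups of 3: phototrophic cells 2, 8 and 24 h after glucose was used up and the diluted culture was moved to light, and heterotrophic cells grown on glucose and urea at 0, 24 and 72 h. All libraries came from whole cells of the same strain, so no allele distinguishes the groups, which differ in culture condition and in time. The values below come from the predicted gene models, which belong to no library. Expression levels were not analysed here, and neither the depth of the libraries nor any change between the 6 groups is reported.

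An exon is a stretch of a gene kept in the mature messenger RNA, and an intron is the stretch between exons that the spliceosome removes. An intron has phase 0 if it lies between codons, phase 1 after the first base of a codon and phase 2 after the second base. Nuclear genes of green algae such as Chlamydomonas and Chlorella are known to be rich in introns. The models were predicted by AUGUSTUS, a program that marks exons, introns and codons in genome sequence, and they carry identifiers such as g6338 but no gene name or product.

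The 453 genes held 14969 exons and 14288 coding introns. These were 16.3% of the exons and 18.1% of the coding introns of all complete genes. Exon number ran from 25 to 103, with a median of 30 and a 75th percentile of 36. There were 323 genes with 25 to 34 exons, 99 with 35 to 49 and 31 with 50 or more. Median coding length was 3987 bases (25th to 75th percentile 3246 to 5175), against 1095 bases (750 to 1527) in genes with 5 to 15 exons. The median gene spanned 11744 bases (10215 to 14632), against 3345 bases (2429 to 4555) in genes with 5 to 15 exons. Both lengths follow in part from the number of exons. Untranslated exons carried 24 of the 453 genes over the threshold, since these had fewer than 25 coding exons.

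Genes on either side of the threshold were close in size. The 62 genes with exactly 25 exons had a median coding length of 3237 bases, a median span of 9684 bases and an intron share of the span of 61.7%. The 75 complete genes with exactly 24 exons had a median coding length of 3258 bases, a median span of 9524 bases and an intron share of 62.6%. Some shares lay further apart, with intervals that overlap. An intron of 1000 bases or more was present in 16 of 62 genes with exactly 25 exons (25.8%, 95% exact interval 15.5 to 38.5%) and in 29 of 75 with exactly 24 (38.7%, 27.6 to 50.6%). The downstream neighbour was on the same strand for 30 of 61 genes with exactly 25 exons (49.2%, 36.1 to 62.3%) and for 29 of 75 with exactly 24 (38.7%, 27.6 to 50.6%).

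Differences between the classes were tested with 1 value per gene in a linear model with a term for each scaffold, and the standard error (SE) was taken between scaffolds. This was done for 24 measures, with two-sided p-values adjusted by the Benjamini-Hochberg method. In genes with 25 or more exons 6 measures were higher, 4 were lower and 14 did not pass at an adjusted p of 0.05. Genes are not replicates of a condition. The intervals rest on how scaffolds differ among themselves and leave out any error of assembly or prediction. Against the subset of the comparison class with 10 to 15 exons, an alternative chosen after seeing the data, 4 of the 10 calls remained: shorter introns, a larger spread of intron length, a larger intron share and a downstream neighbour more often on the same strand. Each of these 4 lost its call in some other setting, given below.

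**Figure D1:**
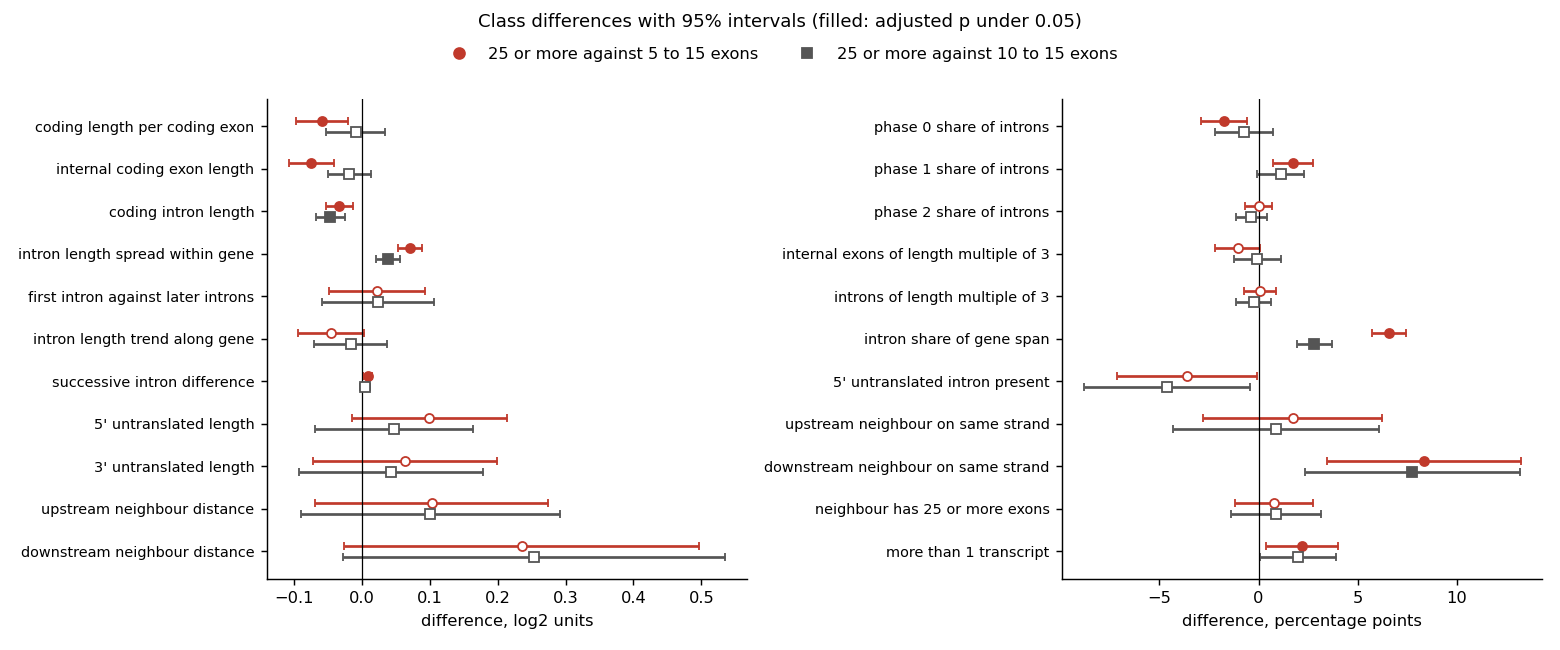
Differences between complete genes with 25 or more exons and complete genes with 5 to 15 exons (red circles) or 10 to 15 exons (grey squares), in log2 units on the left and percentage points on the right; bars are 95% intervals and filled symbols have an adjusted p under 0.05. The intron share of the gene span differed by 6.58 percentage points against genes with 5 to 15 exons and by 2.81 against genes with 10 to 15 exons, and the coding length per exon lay near 0 against genes with 10 to 15 exons.

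The genes with the most exons were g8501 with 103 coding exons, g2357 with 97, g257 with 85, g8127 with 79, g1272 with 74, g5141 with 68, g8584 with 67 and g4677 with 65. None of these 8 had an untranslated exon. Their median intron lay between 145 bases in g8501 and 247 bases in g5141, and in 7 of the 8 it was below 198 bases, the median over the 453 genes. The 102 coding introns of g8501 on scaffold01168 took 53.9% of its span, and the longest measured 512 bases. In g2357, on scaffold00252, the introns ran from 81 to 293 bases. Of the 8, 5 had a longest intron above 1000 bases (g257, g8127, g1272, g5141 and g4677).

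Coding exons of the 453 genes were about as long as elsewhere. The mean coding length per coding exon had a median of 130.1 bases over genes (25th to 75th percentile 110 to 155), against 130.9 bases (105 to 176) in genes with 5 to 15 exons. The per-gene means were less spread at both ends, with a 5th to 95th percentile of 87.5 to 218 bases, against 76.8 to 292 bases in genes with 5 to 15 exons, and a mean over more exons varies less by construction. Single internal coding exons had nearly the same distribution, with a median of 107 bases (5th to 95th percentile 46 to 353, 13835 exons), against 109 bases (48 to 354, 36910 exons). In the linear model the genes with 25 or more exons had 0.960 times the coding length per exon (log2 difference -0.06, SE 0.019, adjusted p = 0.00999, n = 58 scaffolds). The geometric mean of internal exons was also lower (log2 difference -0.07, SE 0.017, adjusted p = 0.000295, n = 58 scaffolds). Against genes with 10 to 15 exons the log2 differences were -0.0086 (SE 0.022, adjusted p = 0.787) and -0.018 (SE 0.016, adjusted p = 0.594, n = 56 scaffolds). End exons, which weigh more in genes with few exons, are part of the first measure and not of the second.

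A few genes combined many exons with long ones. The longest coding length per exon was 405 bases in g1271, 389 bases in g5402 and 376 bases in g1272, and these 3 also had the longest coding sequences of the 453 genes. Model g1271 (scaffold00092, bases 1150116 to 1185049, minus strand) encodes 7699 amino acids in 57 exons, and its neighbour g1272 (bases 1186646 to 1227739, minus strand) encodes 9276 in 74 exons. Model g5402 (scaffold00760, bases 18156 to 58620, minus strand) encodes 8304 amino acids in 64 exons. All 3 had many phase 1 introns, a property noticed after their values were seen. Phase 1 held 46.4% of the introns in g1271, 49.2% in g5402 and 50.7% in g1272, against a mean of 29.1% over the 453 genes. The longest internal exon measured 1523 bases in g1271, 3137 bases in g5402 and 3048 bases in g1272. At the other end, the shortest coding length per exon was 68.7 bases in g4140, 69.0 in g7355 and 69.1 in g5286. Each of these 3 had 27 coding exons and a protein of 617 to 621 amino acids.

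Introns were slightly shorter in genes with 25 or more exons. Pooled over genes, their 14288 coding introns had a median of 197 bases (5th to 95th percentile 121 to 532), against 211 bases (121 to 511) for the 42746 coding introns of genes with 5 to 15 exons. Per gene, the median intron had a median of 198 bases, against 212.75 bases. In the linear model on mean log2 length the ratio was 0.977 (log2 difference -0.033, SE 0.010, 95% interval -0.053 to -0.013, adjusted p = 0.00631, n = 58 scaffolds). The mean was higher in 11 of 29 scaffolds with at least 5 genes of each class. Among genes with 10 to 15 exons as the comparison the log2 difference was -0.046 (SE 0.011, adjusted p = 0.000481, n = 56 scaffolds). With the median in place of the mean log2 length of each gene it was -0.081 against genes with 5 to 15 exons. The per-gene median intron decreased along the exon classes, from 212 bases at 5 to 9 exons and 213 at 10 to 15 to 208 at 16 to 24, 200.5 at 25 to 34, 193 at 35 to 49 and 181 at 50 or more. With the threshold lowered to 20 exons the log2 difference was -0.016 (adjusted p = 0.147, n = 63 scaffolds) and no longer passed.

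**Figure D2:**
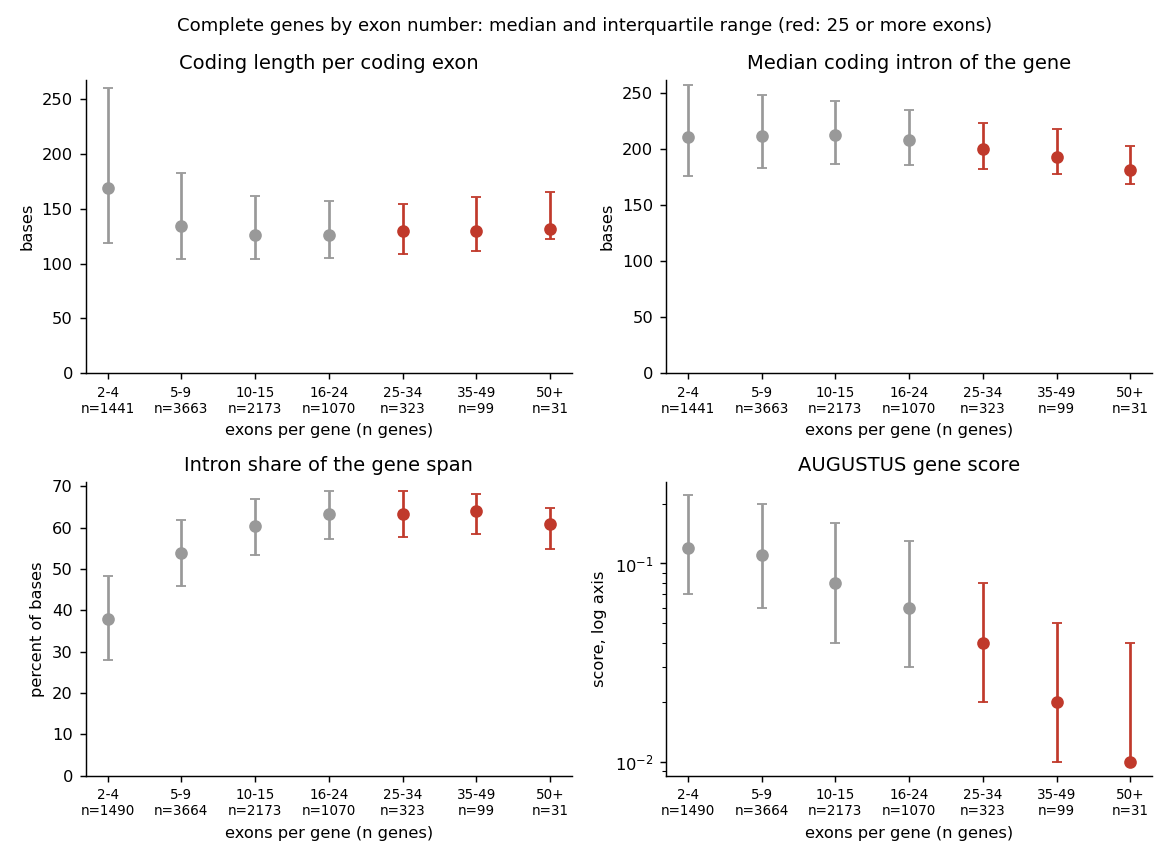
Median and 25th to 75th percentile over complete genes in 7 classes of exon number, with genes of 25 or more exons in red: coding length per coding exon and per-gene median intron in bases, intron share of the gene span in percent, and gene score on a log axis. Coding length per exon stays near 130 bases from 10 exons on, the median intron declines to 181 bases at 50 or more exons, and the gene score declines to 0.01.

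The medians were lower at each position that could be compared. The first 14 coding introns could be compared by order, and the median was lower in genes with 25 or more exons at 14 of 14. The first intron measured 188 bases, against 191 bases in genes with 5 to 15 exons. At the second intron the median was 194 bases in genes with 25 or more exons, against 207 bases in genes with 5 to 15 exons. At the third it was 207 bases, against 219 bases, and at the eighth 201 bases, against 215 bases. The last intron had a median of 192 bases in genes with 25 or more exons and 209 bases in genes with 5 to 15 exons. The first intron was shorter than the later ones of its gene in both classes, by 0.19 log2 units in genes with 25 or more exons and 0.22 in genes with 5 to 15 exons. This contrast did not differ detectably between the classes (difference 0.023, 95% interval -0.048 to 0.093, adjusted p = 0.567, n = 58 scaffolds).

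**Figure D3:**
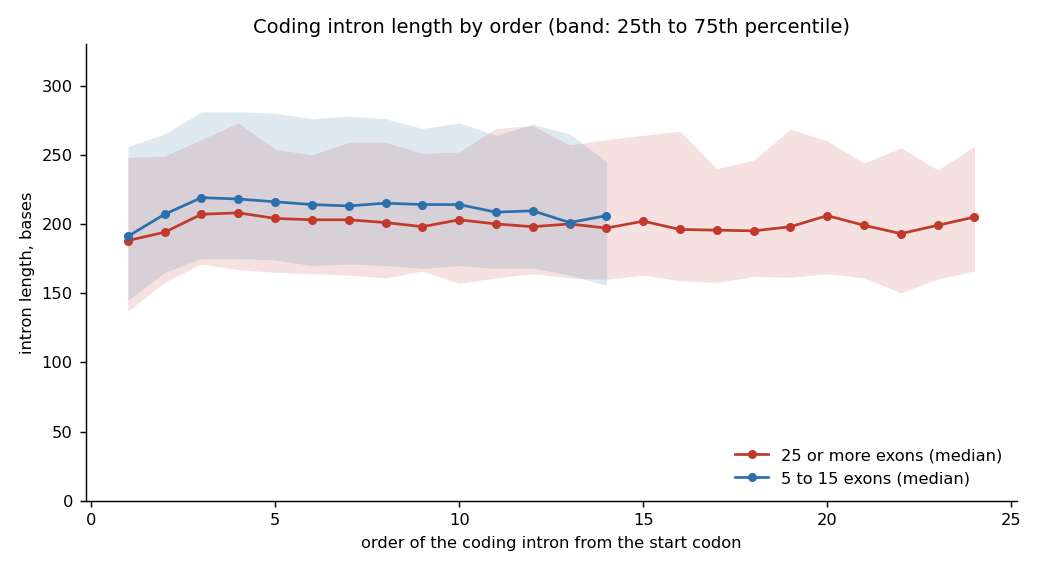
Length in bases of the coding intron at each position from the start codon, as the median (points) and 25th to 75th percentile (band) in genes with 25 or more exons (red) and 5 to 15 exons (blue). Each position shown has at least 100 genes, and positions after 24 are not shown. The red medians stay between 188 and 208 bases over 24 positions, and lie below the blue ones at all 14 positions shared.

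Intron length varied little along the gene. When the introns of each of the 453 genes were divided into 5 groups by their place, the medians were 198, 199, 196, 195 and 198 bases from the start to the end of the coding sequence. The slope of log2 length from the second to the last intron averaged -0.043 per gene, against -0.001 in genes with 5 to 15 exons (difference -0.05, 95% interval -0.09 to 0.003, adjusted p = 0.126, n = 58 scaffolds). Within a gene, however, lengths varied. The SD of log2 intron length averaged 0.64 per gene, against 0.57 in genes with 5 to 15 exons (difference 0.071, SE 0.009, adjusted p = 7.71e-10, n = 58 scaffolds). An SD from few introns is biased low, and this call did not remain on the variance (0.437 against 0.416, difference 0.028, adjusted p = 0.0645, n = 58 scaffolds). Over introns 2 to 9 the SD was 0.56 in genes with 25 or more exons and 0.59 in those comparison genes that have 9 or more coding introns, of which 1866 entered the model (difference -0.022, adjusted p = 0.217, n = 56 scaffolds). Over all coding introns the mean SD was 0.55 at 5 to 9 exons and 0.60 at 10 to 15. It was 0.64 at 16 to 24, 25 to 34 and 35 to 49 exons, and 0.60 at 50 or more. The larger SD was therefore not particular to genes with 25 or more exons.

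The most even introns were those of g9602, from 124 to 233 bases with an SD of 0.24 log2 units, g9645, from 100 to 184 bases with an SD of 0.26, and g6393, from 132 to 285 bases with an SD of 0.28. The least even were those of g236 (99 to 3264 bases, SD 1.24), g725 (135 to 3693 bases, SD 1.17) and g8585 (106 to 3824 bases, SD 1.11). The median intron of these last 3 was still 206 bases in g236, 200 in g725 and 222.5 in g8585. The shortest introns on average belonged to g8464, g9645 and g8462, with geometric means of 134, 140 and 141 bases. Of these, g8462 and g8464 lay on scaffold01168, and g9645 lay on scaffold01246 as g9602 did. The longest belonged to g5368 on scaffold00734 (395 bases) and to g5425 and g5423 on scaffold00760 (377 and 364 bases).

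Many of these genes held a long intron, but among single introns long ones were rare in both classes. An intron of 1000 bases or more was present in 202 of the 453 genes (44.6%, 95% exact interval 40.0 to 49.3%), against 639 of 5837 genes with 5 to 15 exons (10.9%, 10.2 to 11.8%). Per intron, the share was 1.76% (1.55 to 1.99%), against 1.54% (1.43 to 1.66%). Introns under 120 bases made up 4.65% (4.31 to 5.01%) of the coding introns, against 4.69% (4.49 to 4.90%). These intervals count introns as independent. In 82 of the 453 genes no coding intron reached 500 bases.

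Introns took a larger part of these genes. The intron share of the span averaged 62.5% ± 8.41 (SD, n = 453), against 56.4% ± 11.97 (SD, n = 5837) in genes with 5 to 15 exons. The difference was 6.58 percentage points (SE 0.421, adjusted p = 7.09e-21, n = 58 scaffolds), and the mean was higher in 27 of 29 scaffolds. The span includes the untranslated ends and the end exons. These weigh less in a gene with more exons, so the share rises with exon number in part by construction. Coding introns took 63.7% of the coding span, which leaves out the untranslated ends, against 59.8% in genes with 5 to 15 exons (difference 4.29 percentage points, SE 0.407, adjusted p = 1.3e-13, n = 58 scaffolds). Measured as the mean coding intron over the sum of mean coding intron and mean internal exon, which also leaves out the first and last coding exon, the share was 64.6% against 64.2% (difference 0.835 percentage points, SE 0.423, adjusted p = 0.116, n = 58 scaffolds). The median share levelled off along the classes, at 60.5% for 10 to 15 exons, 63.4% for 16 to 24, 63.4% for 25 to 34, 63.9% for 35 to 49 and 60.9% for 50 or more.

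The highest intron shares were 85.6% in g5484, 85.3% in g5368 and 81.5% in g8412. Each had 25 exons and a protein of 623 to 745 amino acids. In g5368 the introns themselves were long, with a median of 313 bases and the longest at 2535 bases. In g5484 the coding introns were ordinary, with a median of 186.5 bases and a maximum of 309, and its 25 exons included 2 untranslated ones, so introns outside the coding sequence are part of its share. The lowest shares were 32.1% in g1272, 33.0% in g1271 and 34.8% in g5810, a gene of 26 exons with an internal exon of 1740 bases.

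Introns of the 453 genes were more often in phase 1 and less often in phase 0 than those of genes with 5 to 15 exons. Phase 0 held 48.4% ± 12.3 of the introns of a gene (SD, n = 453), against 50.1% ± 21.6 (SD, n = 5836) in genes with 5 to 15 exons (difference -1.73 percentage points, SE 0.588, adjusted p = 0.0138). Phase 1 held 29.1% ± 10.4, against 27.4% ± 19.1 (difference 1.73 percentage points, SE 0.497, adjusted p = 0.00551, n = 58 scaffolds), and was higher in 22 of 29 scaffolds. Phase 2 held 22.5% in both (difference 0.0017 percentage points, 95% interval -0.692 to 0.695, adjusted p = 0.996, n = 58 scaffolds). Against genes with 10 to 15 exons the differences were -0.729 for phase 0 (adjusted p = 0.62) and 1.11 for phase 1 (adjusted p = 0.227, n = 56 scaffolds). The order was not even over the classes, since the pooled phase 1 share was 29.4% of introns at 25 to 34 exons, 27.4% at 35 to 49 and 30.6% at 50 or more. Below the threshold, genes with 16 to 24 exons averaged 49.5% in phase 0 and 28.1% in phase 1. Among them, the 75 genes with exactly 24 exons averaged 45.5% and 30.5%. Neither the share of internal exons with a length divisible by 3 (38.0% against 38.9%, adjusted p = 0.126) nor that of introns (33.0% against 32.9%, adjusted p = 0.877, n = 58 scaffolds) passed the test.

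Some of these genes repeated a pattern of exon lengths. In 15 of the 453 genes (3.31%, 95% exact interval 1.86 to 5.40%) at least 3 successive internal coding exons had lengths that came back in the same order elsewhere in the gene. The same was found in 2 of 5837 genes with 5 to 15 exons and in 9 of 1070 with 16 to 24 exons. A gene with more exons offers more places for such a run, so these shares are descriptions with no test, and the pattern was searched for after exon lengths had been seen. In all 15 genes the introns before the matched exons had the same phases at both places. Equal lengths fix the later phases of a run, so only the phase before its first exon could differ. Of 49 introns inside the runs, 1 had the same length at both places, and the median difference was 33 bases.

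The clearest pattern was in g6338 (scaffold00902, bases 594996 to 608360, plus strand), with 49 coding exons. From coding exon 6 to 24 an exon of 55 bases was followed by an exon of 26 bases 8 times, with phase 1 before each exon of 55 bases and phase 2 before each exon of 26 bases. Together these exons make 81 bases, or 27 codons, and a single exon of 81 bases stands within the series at coding exon 13. The gene held 12 exons of 55 bases and 9 of 26 bases. The introns between coding exons 6 and 24 ran from 120 to 272 bases. In g1995 (scaffold00178, bases 844797 to 858381, plus strand) exons of 387 and 78 bases alternated from coding exon 12 to 18, with 4 of 387 and 3 of 78 bases in that stretch.

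Other genes repeated longer runs at a distance. In g5141 (scaffold00704, bases 531279 to 560933, plus strand) 8 exons of 149, 98, 22, 58, 140, 98, 67 and 187 bases stood at coding exon 3 and again at coding exon 51, 2023 codons further on. In g9572 (scaffold01246, bases 271101 to 282644, minus strand) exons of 121, 109, 71, 11, 53 and 189 bases stood at coding exons 15 and 34, 590 codons apart, in a gene of 40 exons. In g3830 (scaffold00514, bases 674267 to 688353, plus strand) exons of 91, 111, 120, 129, 44 and 104 bases stood at coding exons 5 and 24. A run of 5 recurred in g7374 and runs of 4 in g7408 and g9454. The other 8 genes (g241, g406, g626, g1849, g1995, g6162, g6812 and g7765) had runs of 3.

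**Figure D4:**
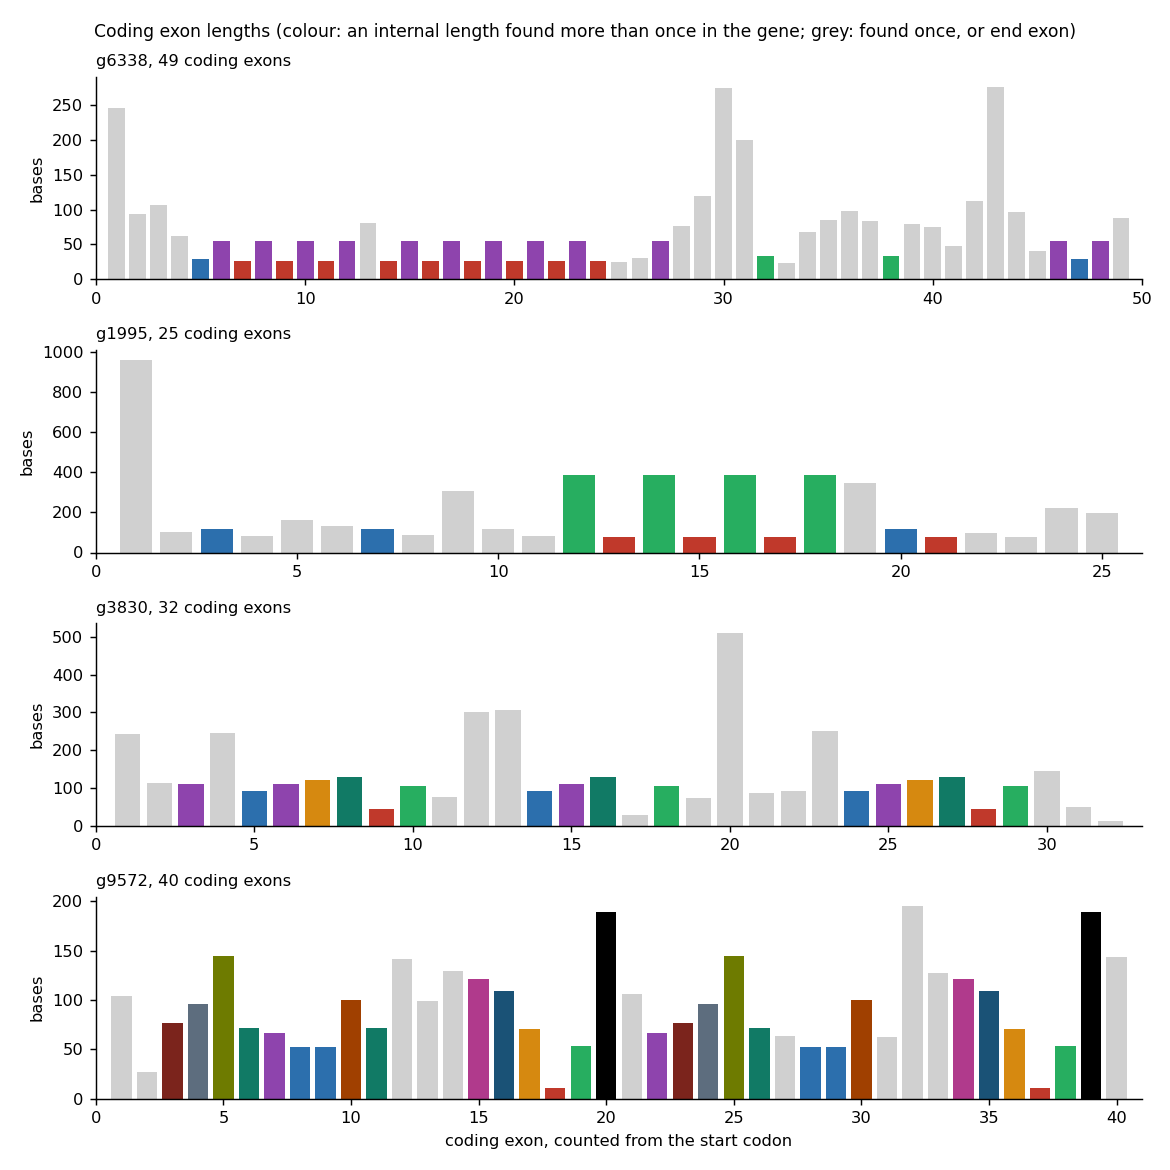
Length in bases of every coding exon in order from the start codon for g6338, g1995, g3830 and g9572; coloured bars are internal lengths found more than once in that gene, and grey bars are found once or are end exons. In g6338 bars of 55 and 26 bases alternate from exon 6 to 24 but for a bar of 81 bases at exon 13, in g1995 bars of 387 and 78 bases from exon 12 to 18, and in g9572 the run at exon 15 returns at exon 34.

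Runs of exon lengths were also shared between different genes. Of 55 pairs of gene models with a common run of at least 5 internal exon lengths, 13 held 1 gene with 25 or more exons and 4 held 2. These pairs took in 18 of the 453 genes, among 104 gene models in all, and a gene with more exons offers more places for such a run. The 4 pairs were g4787 and g4800 (a run of 10), g6811 and g6812 (8), g725 and g726 (6), and g5942 and g7374 (5). Models g6811 (45 exons) and g6812 (47 exons) are neighbours on scaffold00992, and g725 (28 exons) and g726 (25 exons) are neighbours on opposite strands of scaffold00064.

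The gene score that AUGUSTUS wrote was lower with more exons. Its median was 0.03 over the 453 genes, against 0.1 in genes with 5 to 15 exons, and along the classes it was 0.11 at 5 to 9 exons, 0.08 at 10 to 15, 0.06 at 16 to 24, 0.04 at 25 to 34, 0.02 at 35 to 49 and 0.01 at 50 or more. The lowest value in use, 0.01, was carried by 138 of the 453 genes (30.5%), against 232 of 5837 (3.97%). Across all 8901 complete genes the Spearman rho of exon number with gene score was -0.26, and over the 453 genes it was -0.21. Both are descriptions, since genes share scaffolds. The mean score of the coding segments was 0.945 ± 0.0805 (SD, n = 453) against 0.940 ± 0.0954 (SD, n = 5837). These means did not differ detectably (difference 0.0052, 95% interval -0.0032 to 0.014, adjusted p = 0.33, n = 58 scaffolds). The mean score of the introns differed by -0.0032 (95% interval -0.012 to 0.0053, adjusted p = 0.522, n = 58 scaffolds). The medians, which were not tested, were lower in the 453 genes: 0.946 against 0.96 for coding segments and 0.951 against 0.98 for introns. Class medians did decline for coding segments, from 0.962 at 5 to 9 exons to 0.948 at 25 to 34 and 0.938 at 50 or more. For introns the median declined from 0.9875 at 5 to 9 exons to 0.935 at 50 or more. Across all complete genes the rho with exon number was -0.049 for coding segments and -0.23 for introns, again as descriptions. The lowest coding segment score within a gene had a median of 0.49, against 0.78, and every coding segment reached 0.5 in 222 of the 453 genes, against 4772 of 5837. The minimum of more values is lower by construction.

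High scores were nevertheless possible. Model g684 (scaffold00047, bases 652253 to 673268, plus strand) had 62 exons and a gene score of 0.82, the highest of the 453. It was followed by g1837 (27 exons, 0.65) and g9753 (28 exons, 0.53). A score of 0.1 or more was reached by 95 of the 453 genes (21.0%), including 4 of the 31 with 50 or more exons. The genes named above for the most exons scored 0.01, apart from g257 at 0.04. Model g1271 scored 0.01 and g5402 scored 0.03. The genes with repeated runs of exon lengths scored from 0.01, as in g6338, to 0.12 in g7765.

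Untranslated ends were of ordinary length. The median 5' untranslated length was 82 bases, against 74 bases in genes with 5 to 15 exons (ratio 1.07, adjusted p = 0.137), and at the 3' end the median was 155 bases, against 143 bases (ratio 1.05, adjusted p = 0.47, n = 58 scaffolds). An untranslated 5' intron was present in 106 of 453 genes (23.4%), against 1564 of 5812 (26.9%; difference -3.59 percentage points, 95% interval -7.12 to -0.058, adjusted p = 0.101, n = 58 scaffolds). Untranslated exons count toward the exon rule in both classes. More than 1 transcript was predicted for 18 of the 453 genes (3.97%), against 106 of 5837 (1.82%; difference 2.20 percentage points, SE 0.899, adjusted p = 0.0425, n = 58 scaffolds). This call remained in 2 of 9 alternatives.

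The gene downstream lay on the same strand more often than for other genes. Among the 438 genes with a neighbour on both sides, the downstream neighbour shared the strand in 192 (43.8%, 95% exact interval 39.1 to 48.6%), against 2058 of 5751 (35.8%, 34.5 to 37.0%) for genes with 5 to 15 exons. The difference was 8.33 percentage points (SE 2.43, adjusted p = 0.00551, n = 56 scaffolds) and was positive in 21 of 27 scaffolds. The upstream neighbour shared the strand in 164 (37.4%), against 2063 (35.9%; difference 1.72 percentage points, 95% interval -2.79 to 6.22, adjusted p = 0.522, n = 56 scaffolds). The downstream excess exceeded the upstream one by 6.62 percentage points (SE 2.99, 95% interval 0.615 to 12.6, unadjusted p = 0.0313, n = 56 scaffolds), a test added after seeing the data. By distance, the downstream neighbour shared the strand in 16 of 123 genes with 25 or more exons, against 222 of 1814 with 5 to 15 exons, where it lay under 200 bases away. From 200 to under 1000 bases the share was 51.7% in genes with 25 or more exons, against 46.1%, and from 1000 bases it was 59.4% (51.6 to 66.9%), against 47.1% (44.9 to 49.2%). The excess did not grow evenly with exon number. The share was 45.5% of 310 genes with 25 to 34 exons, 34.3% of 99 with 35 to 49 and 58.6% of 29 with 50 or more. With thresholds of 20 and 30 exons the difference was 3.71 (adjusted p = 0.134, n = 63 scaffolds) and 4.02 percentage points (adjusted p = 0.205, n = 48 scaffolds).

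Distances to neighbours did not differ detectably. The median was 487.5 bases downstream, against 466 bases in genes with 5 to 15 exons (ratio 1.18, log2 difference 0.24, 95% interval -0.026 to 0.50, adjusted p = 0.131), and 655.5 bases upstream, against 575 bases (ratio 1.07, adjusted p = 0.333, n = 56 scaffolds). Genes with 25 or more exons were themselves 57 of the 876 neighbours of such genes (6.51%) and 562 of the 11502 neighbours of genes with 5 to 15 exons (4.89%). Within scaffolds this differed by 0.793 percentage points (95% interval -1.18 to 2.76, adjusted p = 0.522, n = 56 scaffolds).

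In total, 56 of the 453 genes lay next to another of them, in 29 adjacent pairs, of which 15 were on the same strand. As given above, the share of such neighbours (6.51%) did not differ detectably from that beside genes with 5 to 15 exons (4.89%). The strands of these pairs were not compared with those of other pairs. There were 2 runs of 3. On scaffold00366 g3228, g3229 and g3230, with 31, 31 and 29 exons, followed each other between bases 2547748 and 2593673. On scaffold00629 g4752, g4753 and g4754, with 43, 25 and 30 exons, lay between bases 971922 and 1020661, with 11541 bases between the last 2. The 6 genes of these runs had median introns between 148 and 182 bases, below the median of 198 over the 453 genes. On their own scaffolds the median over genes with 25 or more exons was also lower, at 187.5 bases on scaffold00366 and 179.75 on scaffold00629. Only 2 of the 29 adjacent pairs, g725 with g726 and g6811 with g6812, had a common run of at least 5 exon lengths.

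The 453 genes were spread over 58 scaffolds, with 240 on the minus and 213 on the plus strand. Of these, 386 lay on the 29 scaffolds whose models extend over at least 500 kb. Neither count was set against all complete genes, so neither shows a preference for a strand or for large scaffolds. Among the 56 scaffolds with at least 20 complete genes, 4 held none, and the share of complete genes with 25 or more exons had a median of 4.67% and a highest value of 10.1%. Each of the 27 scaffolds with at least 100 complete genes held at least 2. The highest shares in these were 9.52% on scaffold00047 (10 of 105 genes, 95% exact interval 4.66 to 16.8%), 8.41% on scaffold00629 (28 of 333, 5.66 to 11.9%) and 6.95% on scaffold01012 (38 of 547, 4.96 to 9.41%). The lowest were 1.49% on scaffold00132 (2 of 134, 0.181 to 5.29%), 2.73% on scaffold00704 (3 of 110, 0.566 to 7.76%) and 3.27% on scaffold00557 (7 of 214, 1.33 to 6.62%). Scaffold00629 was the only scaffold of the 56 whose interval excluded the overall 5.09%, and the intervals are not adjusted for the number of scaffolds. The median intron there was 179.75 bases in its genes with 25 or more exons and 198.75 bases in its genes with 5 to 15 exons. Both lie at the lower end of the 27 scaffolds, where the medians ran from 179 to 258 bases in genes with 25 or more exons and from 181.5 to 258.25 bases in genes with 5 to 15 exons.

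**Figure D5:**
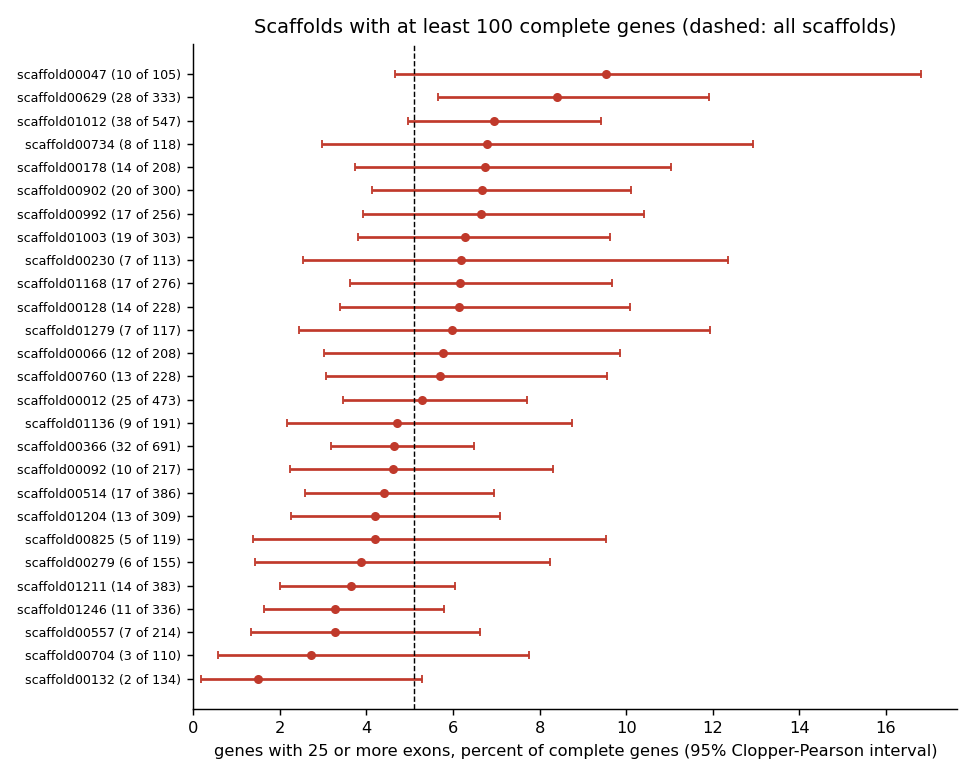
Genes with 25 or more exons as a percentage of complete genes on the 27 scaffolds with at least 100 complete genes, with 95% Clopper-Pearson intervals; numbers in brackets are genes with 25 or more exons of complete genes, and the dashed line is 5.09%, the value over all scaffolds. Shares run between 1.49% and 9.52%, and the interval of scaffold00629 lies above the line.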

How the data were processed

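The file holds gene models deposited by the authors for the series, with AUGUSTUS named as the source on every line. The labels name no version, settings, evidence or assembly for it. The score column is as the authors deposited it, without a description; values reach 2, so scores were not read as probabilities. Output of TopHat 1.3.3 and Cufflinks, which appear in the submitters' processing notes, was not used here. Coordinates count from 1 on the deposited scaffolds. No genome sequence was used, so no sequence is shown.

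Coding introns were the gaps between coding segments of the transcript with the longest coding sequence, and phases were read from the phase column. Ordinary least squares models with scaffold terms and standard errors clustered on scaffolds (t quantiles, scaffolds minus 1) were fitted in Python 3.11.15 with NumPy 2.4.6, pandas 2.3.3 and SciPy 1.17.1 over scaffolds holding both classes, 58 in most fits. Printed class means and medians cover all genes of a class for which the measure is defined. Distances and untranslated lengths were log2(bases + 1). The code was tested on simulated models. Shares carry exact Clopper-Pearson intervals, which cover counting error only. Individual genes were named by extremes of exon number, coding length, coding length per exon, intron share, intron length, intron spread and gene score, and by runs of adjacent members. Genes with repeated exon lengths were chosen after their values were seen. The members, measures and lists were chosen with earlier results of these data known. Alternatives changed the exon threshold, the comparison class, the genes, the scaffolds or the way a measure was taken. The comparison with 10 to 15 exons, the variance, introns 2 to 9 and the intron share without gene ends were among 5 added after seeing the data.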

Additional observations from a re-analysis of the deposited data

How the results depend on the processing

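Of 256 tested values under 17 planned and 5 added alternatives, 199 kept sign and call, 34 lost a call, 2 gained a call and 21 changed sign, 20 of these where neither value passed. The cause was not tested except where stated. No paired analysis was possible because gene structure was predicted once for the series, with no values per library. For the same reason no replicate was left out, and the depth of the libraries is unknown here. Differences below are genes with the higher exon number minus the comparison class.

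With 20 or more exons, calls were lost for intron length (-0.016 log2), the downstream strand (3.71 points) and more than 1 transcript (0.992 points), and phase 2 (-0.124) and the upstream strand (-0.774) changed sign. With 30 or more exons, calls were lost for coding length per exon (-0.063), the successive intron difference (0.0094), phase 0 (-1.70), phase 1 (1.40), the downstream strand (4.02) and more than 1 transcript (2.01). The intron score gained a call (-0.0089), and introns of a length divisible by 3 (-0.0097), the coding segment score (-0.00074) and a neighbour with many exons (-0.495) changed sign. Fewer genes enter this setting.

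Against genes with 8 to 12 exons, calls were lost for coding length per exon (-0.044), the successive intron difference (0.0090) and more than 1 transcript (2.05), the untranslated 5' intron gained a call (-4.24) and introns of a length divisible by 3 changed sign (-0.322). Against 10 to 15 exons, calls were lost for coding length per exon (-0.0086), internal exon length (-0.018), the successive intron difference (0.0045), phase 0 (-0.729), phase 1 (1.11) and more than 1 transcript (2.01), and phase 2 (-0.378) and introns of a length divisible by 3 (-0.249) changed sign.

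Counting coding segments, calls were lost for coding length per exon (-0.042), the successive intron difference (0.0071), phase 0 (-1.36) and more than 1 transcript (2.13), and phase 2 (-0.229) and introns of a length divisible by 3 (-0.147) changed sign. With a mean coding segment score of at least 0.95, which left 211 genes with 25 or more exons, calls were lost for coding length per exon (-0.026), internal exon length (-0.043), phase 0 (-1.41), the downstream strand (8.30) and more than 1 transcript (4.10), and phase 2 (-0.763) and the coding segment score (-0.0039) changed sign. In genes with 1 transcript, calls were lost for coding length per exon (-0.045) and the successive intron difference (0.0070), and phase 2 (-0.0095) and introns of a length divisible by 3 (-0.040) changed sign.

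On scaffolds of at least 100 kb, the successive intron difference lost its call (0.0080) and phase 2 changed sign (-0.037). Without the scaffold with the most genes, the successive intron difference (0.0067) and more than 1 transcript (2.24) lost their calls, and phase 2 (-0.117) and introns of a length divisible by 3 (-0.115) changed sign. Phase 2 also changed sign without a scaffold term (-0.0056) and without the first coding intron (-0.00076), and the upstream distance between coding ends (-0.0026). The larger intron spread lost its call as a variance (0.028) and changed sign over introns 2 to 9 (-0.022). The second setting fixes the number of introns, leaves out the first one and keeps only 1866 comparison genes, and which of these changed the sign was not tested. The intron share was 4.29 points higher over the coding span and lost its call without the end exons (0.835 points). The successive intron difference is the mean absolute log2 difference of successive introns minus that of all pairs in the gene, and a value below 0 means that neighbours are more alike. It was -0.017 in genes with 25 or more exons and -0.026 in genes with 5 to 15 exons, so neighbours were slightly less alike in genes with 25 or more exons (difference 0.0086, adjusted p = 0.0425, n = 58 scaffolds). This call remained in 3 of 10 alternatives.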
